A study of Mus musculus with 16 samples.

Results

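Histone genes were followed in mouse bone marrow through all rows of the gene list whose symbol starts with Hist1h, Hist2h, Hist3h, Hist4h, H1f, H2af or H3f and that held at least 50 unique molecular identifiers (UMIs, each standing for 1 captured RNA molecule) over the 12 marrow matrices. Of 83 such symbols, 72 passed, among 17909 of 32286 listed genes with that many UMIs. The 72 comprised 61 replicative genes (Hist symbols), 10 variant genes and H3f3aos, a noncoding gene antisense to H3f3a. Of the 11 that did not pass, Hist1h1t held 27 UMIs, H1foo 24 and Hist2h2aa2 11, and none of the others held more than 3. The members just inside were Hist1h2ao with 209 UMIs and Hist3h2ba with 229.

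The marrow came from BALB/c mice, and 3 groups were sampled. WT mice carried no tumor, received no dosing and are labelled ctrl. Vehicle mice carried the 2208L mammary tumor, a Trp53-null transplant model of triple-negative breast cancer, and received vehicle. Treated mice carried the same tumor and received IACS-70654, an inhibitor of the bromodomain of the acetyltransferases CBP and P300, over 7 days with pauses between dosing blocks according to the series record, whereas the text of the study describes a shorter course. Each group gave 2 replicates of each of 2 sorts, namely CD45+/Ter119-/DAPI- leukocytes (CD45 sort) and Lin-/c-Kit+/CD45+/DAPI- progenitors (cKit sort), with cells of 3 mice pooled. The paper states that cell suspensions were tagged with CellPlex oligos and separated by sample with Cell Ranger multi. Each library here is therefore a tagged sample. Whether the samples of a sort were split from a shared run was not given. Whether replicates came from separate pools was not given either, so p-values measure the spread between tagged samples, which may be technical. The libraries held 27427163 to 68415534 UMIs, and 2836 to 7517 cells were kept in each. No barcode was shared between libraries of a sort, and 1 to 14 were shared between libraries of different sorts. The tumor libraries were not used here.

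Histones package DNA into nucleosomes. Replicative histone genes lie in clusters of near-identical copies and are transcribed when DNA is copied. Their mRNAs mostly carry no poly(A) tail and end in a short stem loop that is bound by SLBP, the stem-loop binding protein. Variant genes are single genes with introns in many cases, are transcribed outside S phase as well, and have poly(A) tails. H2A.Z (H2afz, H2afv) and H3.3 (H3f3a, H3f3b) mark active and regulatory chromatin, macroH2A (H2afy, H2afy2) is linked to silent chromatin, H2A.X (H2afx) is phosphorylated at DNA breaks, and H1.0 (H1f0) and H1x (H1fx) are linker histones that are often high in cells leaving the cycle. The libraries were primed from poly(A), so a replicative histone mRNA without a tail was captured only in part. Levels of 1 gene, or of 1 sum of genes, are therefore compared between cells, not between genes. Whether the captured part was the same in all classes and phases was not tested. Levels are given as CPM, the usual scale of UMIs of a gene per 1e6 UMIs of the cell class in that library. Reads of near-identical copies may be split between them by the authors' counting, so values of single replicative genes are uncertain as to the copy.

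The 3′ ends show the property that separates both groups and bears on their capture. A perfect stem of 6 bases around a loop of 4 bases was searched for within 150 bases after the stop codon of the GENCODE vM21 models (GRCm38). It was found in 41 of the 45 replicative members with at least 60 annotated bases after the stop codon (91.1%), in 1 of 10 variant members (10%) and in 1375 of 20520 protein-coding genes (6.7%). The variant member was H2afx. The replicative members with long models and no such stem loop were Hist1h2bc, Hist1h2bp, Hist1h2br and Hist2h2be. The form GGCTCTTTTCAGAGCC was found in 24 members, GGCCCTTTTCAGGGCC in 6 and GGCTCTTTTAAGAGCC in 5. The stem loops of 4 replicative members with many UMIs, of 2 H4 members that fell after treatment and of H2afx follow 5′ to 3′, with the bases of the stem in capitals and up to 5 bases on either side.
Hist1h2ap, chr13:21833029-21833044, minus strand: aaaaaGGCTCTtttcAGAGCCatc
Hist1h2ae, chr13:23570668-23570683, minus strand: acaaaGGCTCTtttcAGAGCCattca
Hist1h1e, chr13:23621782-23621797, minus strand: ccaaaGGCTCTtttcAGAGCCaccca
Hist1h1c, chr13:23739512-23739527, plus strand: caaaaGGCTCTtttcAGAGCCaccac
Hist2h4, chr3:96262939-96262954, minus strand: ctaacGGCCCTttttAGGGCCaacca
Hist4h4, chr6:136803998-136804013, minus strand: acaaaGGCCCTtttcAGGGCCcacaa
H2afx, chr9:44335240-44335255, plus strand: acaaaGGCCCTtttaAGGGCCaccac

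The models differ in what follows the stem loop. It was the end of the transcript, or within 100 bases of it, in 20 replicative members, whereas 22 had a model that ran more than 100 bases further and 19 had no stem loop in the model. For example 3 bases followed it in Hist1h2ap, 840 in Hist1h1c and 2445 in Hist4h4. Median UMIs were 4914.5 (range 209 to 236743) over the 20 short models, 11120.5 (229 to 198516) over the 22 long ones and 2910 (472 to 108807) over the other 19, so these groups overlapped widely.

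Promoters were available from RefSeq (GRCm38.p6) for 65 members, 56 replicative and 9 variant, as 250 bases before to 50 after the start. The letters CCAAT (bound by NF-Y) were present on either strand in 85.7% of the replicative promoters, 66.7% of the variant ones and 37.9% of all 27025 promoters. The letters TATAAA, known from promoters with a fixed start, were present in 57.1%, 11.1% and 14.2% in the same order. For GGGCGG, which is bound by Sp1, the shares were 37.5%, 77.8% and 35.9%. Adjoining matches of different motifs can share bases. The bases before the start of Hist1h1b, the H1.5 gene, and of H1fx are shown because these linker histone genes behaved differently in what follows, with matches to these letters in capitals.
Hist1h1b, chr13:21780626-21780875, minus strand: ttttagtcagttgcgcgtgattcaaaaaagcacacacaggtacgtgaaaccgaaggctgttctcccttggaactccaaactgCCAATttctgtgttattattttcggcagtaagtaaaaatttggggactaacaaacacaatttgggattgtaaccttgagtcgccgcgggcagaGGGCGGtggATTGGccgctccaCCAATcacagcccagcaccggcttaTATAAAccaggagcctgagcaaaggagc
H1fx, chr6:87981638-87981732, minus strand: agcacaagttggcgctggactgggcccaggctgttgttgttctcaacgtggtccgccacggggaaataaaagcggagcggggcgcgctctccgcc
All 3 motifs were found in the 250 bases before Hist1h1b and only the motif of Sp1 in those before the RefSeq start of H1fx. That start lies inside the GENCODE model of H1fx, so that 155 of its 250 bases, the Sp1 match among them, are transcribed in that model, and only the 95 bases outside it are printed. Of the replicative members, 49 lie on chromosome 13, 9 on chromosome 3, 2 on chromosome 11 and 1 on chromosome 6, while the 10 variant genes are spread over 8 chromosomes.

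Cell classes were rebuilt by clustering without the histone genes and named from marker genes, and 6 classes were compared between groups. Proliferating neutrophil precursors (a proNeu-like cluster, led by granule genes such as Elane and Mpo, and preNeu-like clusters), later neutrophils and monocytes came from the CD45 sort. Stem and multipotent cells, neutrophil progenitors and erythroid progenitors came from the cKit sort. Of these 6 classes, replicative histone UMIs were most frequent in the proliferating precursors, where their sum was 3841 to 4591 CPM over the 6 libraries. It was 2635 to 3012 CPM in monocytes and 486 to 677 CPM in later neutrophils, which comprise immature and mature clusters. In the cKit sort it was 2005 to 2623 CPM in stem and multipotent cells, 1518 to 2026 CPM in neutrophil progenitors and 2399 to 2864 CPM in erythroid progenitors. The library ranges of the 3 CD45 classes did not overlap, whereas those of stem and multipotent cells overlapped with both other cKit classes.

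The sum of the variant histones spanned a narrower range over the CD45 classes than that of the replicative ones. It was 6562 to 6859 CPM in proliferating precursors, 7616 to 8389 CPM in monocytes and 3930 to 4271 CPM in later neutrophils. In the cKit sort it was 7069 to 7730 CPM in stem and multipotent cells, 6126 to 6290 CPM in neutrophil progenitors and 6038 to 6956 CPM in erythroid progenitors. Replicative genes thus made up 36.2 to 41.1% of all histone UMIs in proliferating precursors and 10.97 to 13.7% in later neutrophils. These are shares of captured RNA, not of all histone mRNA in the cells. Over the 3 CD45 classes the highest class mean exceeded the lowest by a median of 10.1 times for replicative and 5.30 times for variant members, whereas over the 3 cKit classes the order was the other way round, with 1.37 times for replicative and 1.62 times for variant members. Because clusters were made from genes of the same cells, these levels are a description and were not tested.

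**Figure D1:**
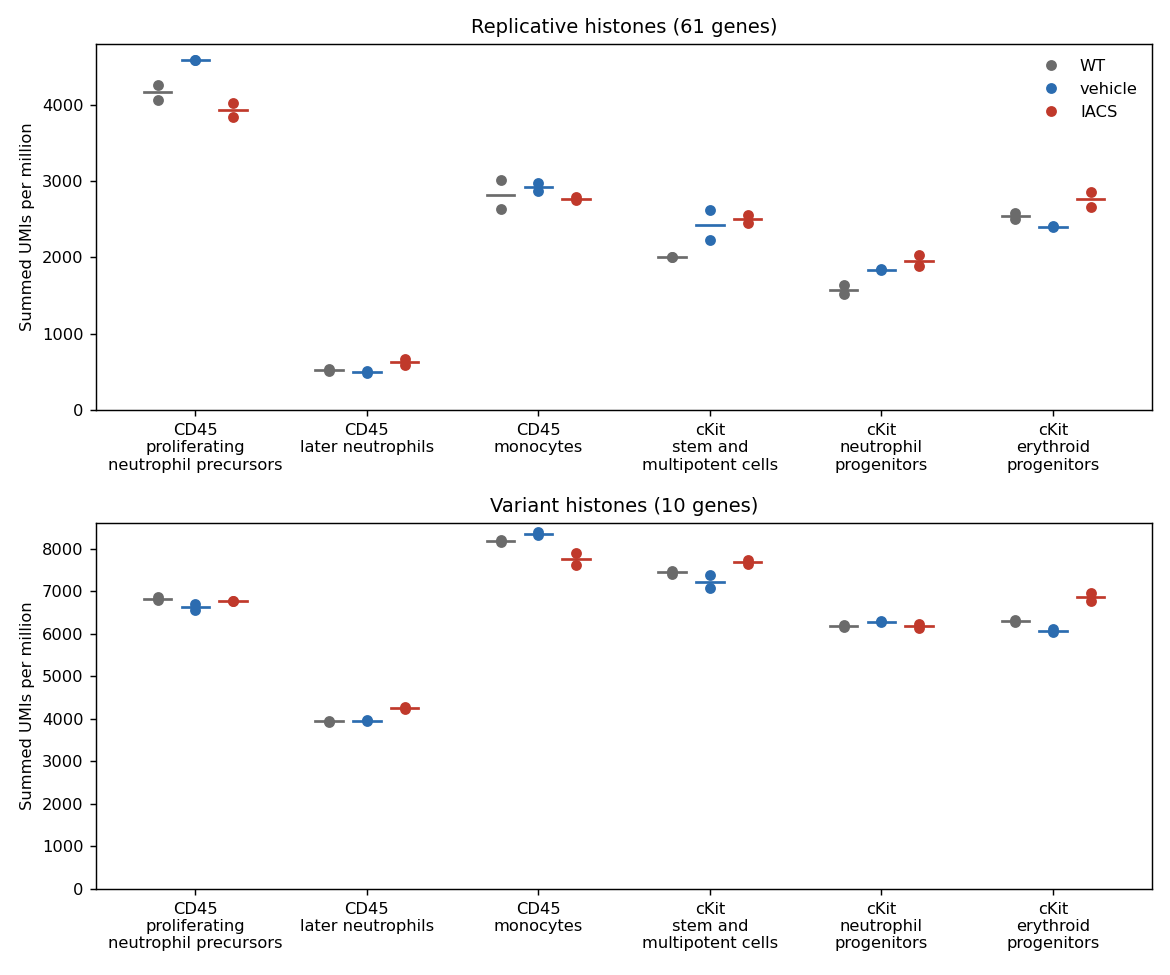
Summed CPM of replicative and of variant histone genes in each library (points, colored by group) for the 6 cell classes, with horizontal lines at group means. Replicative sums lie between 3841 and 4591 CPM in proliferating precursors and between 486 and 677 CPM in later neutrophils.

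Most replicative genes followed the sum. Of 61, 52 had their highest CD45 mean in proliferating precursors, 7 in monocytes and 2 in later neutrophils. Hist1h2ap, an H2A gene with the most UMIs of all replicative members, was at 942 to 1192 CPM in precursors and at 24.1 to 42.7 CPM in later neutrophils. Hist1h1c, which encodes H1.2, was flatter, at 117 to 183 CPM in precursors, 64.4 to 130.4 CPM in later neutrophils and 74.8 to 87.7 CPM in monocytes. Hist1h2bc, an H2B gene without a stem loop in its model, had its highest mean in later neutrophils (61.03 CPM) and its lowest in precursors (28.7 CPM), the opposite order.

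The variants differed from gene to gene. H2afz was at 2430 to 2620 CPM in precursors, 2256 to 2648 CPM in monocytes and 482 to 556 CPM in later neutrophils. Its partner H2afv was at 282 to 344, 281 to 337 and 44.0 to 56.8 CPM in the same order, and H2afx at 227 to 268, 172 to 201 and 17.8 to 21.96 CPM. H3f3a was closer to level, at 1520 to 1619 CPM in precursors, 2252 to 2472 CPM in monocytes and 1883 to 2166 CPM in later neutrophils. H2A.Z and H2A.X genes were thus lowest in later neutrophils, while H3f3a was higher there than in precursors in every library. H2afy, the macroH2A1 gene, was highest in stem and multipotent cells (1796 to 2285 CPM) and lowest of the cKit classes in erythroid progenitors (321 to 389 CPM), with neutrophil progenitors between (1071 to 1229 CPM). H2afj, the H2A.J gene, stayed between 233 and 505 CPM in all 6 classes. H3f3b was at 1413 to 1573 CPM in precursors and 710.4 to 1006 CPM in later neutrophils, so the H3.3 genes took opposite orders there.

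The linker histone variants were rarer. H1fx was at 39.6 to 75.6 CPM in stem and multipotent cells and at 0.36 to 1.00 CPM in later neutrophils. H1f0 was at 34.3 to 51.8 CPM in monocytes, 22.4 to 53.1 CPM in stem and multipotent cells and 2.35 to 8.73 CPM in later neutrophils. H2afy2 did not exceed 9.51 CPM in any class. H1fx was thus mainly a gene of the c-Kit+ progenitors, whereas H1f0 reached its level there in monocytes too.

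Cells were next set into low-cycle, S and G2/M cells from S and G2/M gene lists that held no histone gene, after thinning each cell to 2000 UMIs, which left out 281 to 595 shallower cells in each CD45 and 71 to 254 in each cKit library, while CPM were taken from all UMIs of the cells kept. The lists were trimmed of 12 genes after the data had been seen, since their CPM in later neutrophils exceeded 0.2 times that in precursors. The minimum for a cycling call was also raised, to 4 UMIs of the trimmed lists. In WT replicate 1 of the CD45 sort 1472 later neutrophils were called G2/M with the full lists and 40 after these changes. Pooled CD45 contrasts of phases thus rest in part on this choice, and are given for the trimmed lists only. In the CD45 sort the replicative sum was 387 to 559 CPM in low-cycle, 2780 to 3750 CPM in S and 4794 to 5364 CPM in G2/M cells. In the cKit sort it was 736 to 904, 1568 to 1894 and 3637 to 4204 CPM. All libraries kept this order, with the highest values in cells called G2/M rather than S. These phases also differ in their makeup of cell classes. In the CD45 libraries later neutrophils made up 69.5 to 91.9% of low-cycle cells, and proliferating precursors 52.9 to 68.5% of G2/M but at most 0.97% of low-cycle cells, so that pooled values compare classes as well as phases. Within monocytes alone the replicative sum was 433 to 606 CPM in low-cycle, 2903 to 4174 CPM in S and 4236 to 5652 CPM in G2/M cells, and within stem and multipotent cells 919 to 1009, 1284 to 1741 and 3960.3 to 4785 CPM.

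The pooled variant sum moved less, from 4049 to 4478 CPM in low-cycle to 7256 to 8669 CPM in G2/M cells of the CD45 sort, and from 4933 to 6221 to 7137 to 8017 CPM in the cKit sort.

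Between 316 and 554 CD45 cells a library lay near a border between calls. The sums were therefore also read along the S list alone. CD45 cells with no UMI of the S list held 478 to 710 CPM of replicative histones, those with 1 to 2 UMIs 1458 to 1814 CPM, and those with 3 to 5 UMIs 3737 to 4661 CPM. With 6 to 9 UMIs the sum was 4088 to 5088 CPM and with 10 or more 3873 to 5980 CPM, so it overlapped between libraries beyond 2 UMIs. In the cKit sort the corresponding sums were 969 to 1498, 1686 to 1910, 2076 to 2533, 2623 to 3080 and 2718 to 3014 CPM.

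**Figure D2:**
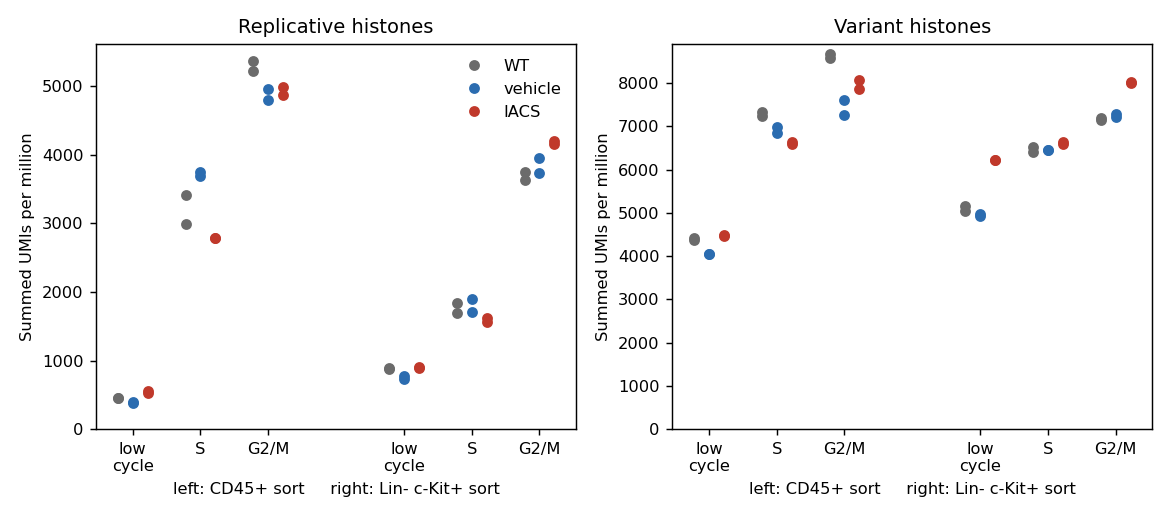
Summed CPM of replicative (left) and variant (right) histone genes by cycle phase in each library, for the CD45 and the cKit sort, with points colored by group. The replicative sum in the CD45 sort runs from 387 to 559 CPM in low-cycle cells to 4794 to 5364 CPM in G2/M cells.

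By gene, 57 of 61 replicative members were higher in CD45 G2/M than in low-cycle cells in all 6 libraries, with a median ratio of 13.4 over the 61. How many of all genes were higher in this way was not counted. The counts by phase given here, also those of variants, therefore describe the members only. Within monocytes alone 51 were higher in all libraries, with a median ratio of 7.48, and within stem and multipotent cells 44, with a median ratio of 4.83. Hist1h2ap was at 1399 and 1375 CPM in WT, 1163 and 1152 CPM in vehicle and 1222 and 1241 CPM in treated G2/M cells, against 19.2 to 22.04 CPM in low-cycle cells. Hist1h1b went from a mean of 6.99 to 501 CPM over all CD45 cells, a ratio of 71.8, which was 50.3 within monocytes. Hist1h2bc did not follow the cycle, with means of 47.9 CPM in low-cycle, 38.2 CPM in S and 37.2 CPM in G2/M cells and overlapping libraries. In the cKit sort 53 of 61 were higher in G2/M in all libraries (median ratio 4.36), and in S cells 39 were higher and 4 were lower than in low-cycle cells in all libraries (median ratio 1.93). The 4 that were lower were Hist1h1c, Hist1h2ac, Hist1h2bc and Hist3h2a, named here after their values were seen.

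Among the variants, 7 of 10 were higher in CD45 G2/M cells in all libraries, with a median ratio of 2.86. H2afx had the largest ratio, 21.9, and its libraries read 355 to 424 CPM in G2/M and 15.1 to 20.4 CPM in low-cycle cells. Within monocytes alone its ratio was 18.5, from 17.8 to 28.5 CPM in low-cycle to 400.2 to 479 CPM in G2/M cells, within stem and multipotent cells 6.20, and within neutrophil progenitors 1.46 with overlapping libraries. H2afx is also the variant with a stem loop, which lies 46 bases after its stop codon and is followed by 822 bases in its model. The H2A.Z genes H2afv and H2afz had ratios of 7.01 and 4.75, and within monocytes these were 5.24 and 2.40. H3f3a, one of the H3.3 genes, had a ratio of 0.93 with overlapping libraries, and H2afj was lower in G2/M cells in all libraries (ratio 0.78). Within monocytes their ratios were 1.02 and 0.97, with overlapping libraries. In the cKit sort 5 of the 10 variants were higher in G2/M cells in all libraries (median ratio 1.26), with H2afx again highest at 4.33.

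To ask what the inhibitor did, each class of each library was added up to 1 profile of UMIs, and treated and vehicle libraries were compared across all genes with edgeR's quasi-likelihood test. A gene was called at a Benjamini-Hochberg adjusted p below 0.01 and a log2 change above 0.5 in size. Of the variants, the linker histones H1fx and H1f0 rose in 5 and 4 of the 6 classes and the macroH2A genes H2afy2 and H2afy in 3 and 1, and replicative genes fell in the proliferating precursors taken as a whole. Within the precursor stages fewer of them fell, and whether their summed level was lower or higher than in vehicle depended on the scaling and on the stage. Fewer cells of a type and less RNA per cell cannot be told apart within a summed class.

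In proliferating neutrophil precursors 44 of 60 tested replicative genes fell and none rose, against 10.7% of all genes lower and 12.8% higher. Their median log2 change was -0.69, against 0.005 over all genes. H3f3aos fell as well (log2 change -1.17). By histone type 12 of 12 H4 genes fell, 10 of 12 H3, 12 of 15 H2B, 7 of 16 H2A and 3 of 5 H1 genes. The medians were -0.98 for H4, -0.76 for H3, -0.68 for H2B, -0.60 for H2A and -0.62 for H1.

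Single H4 genes show the fall at the level of libraries, with Hist2h4 and Hist4h4 outside the large cluster and Hist1h4f and Hist1h4b inside it. Hist2h4 (chr3:96261682-96263311) was at 11.02 and 11.2 CPM in WT, 14.6 and 15.1 CPM in vehicle and 6.26 and 7.86 CPM in treated precursors. The treated libraries lay below both other groups, with no overlap, and Hist2h4 fell by 1.35 ± 0.14 (log2 change ± SE, adjusted p = 1.35e-08, edgeR). Hist4h4 (chr6:136801553-136804415) was at 34.4 and 31.01 CPM in WT, 47.2 and 47.3 CPM in vehicle and 27.1 and 29.6 CPM in treated libraries, again the lowest group, and fell by 1.03 ± 0.08 (adjusted p = 8.86e-11, edgeR). Hist1h4f was at 8.30 and 8.71 CPM in WT, 10.5 and 10.2 CPM in vehicle and 4.82 and 4.36 CPM in treated libraries, and fell by 1.47 ± 0.16 (adjusted p = 4.72e-08, edgeR), a call lost in proNeu-like cells alone. Hist1h4b had the most negative value (-1.73 ± 0.40) on 1 to 29 UMIs a library, and lost its call with DESeq2 and without vehicle replicate 2, treated replicate 1 or treated replicate 2.

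The abundant genes changed less. Hist1h2ap was at 1192 and 1096 CPM in WT, 1065 and 1086 CPM in vehicle and 942 and 972 CPM in treated precursors, and its log2 change of -0.46 ± 0.06 stayed under the size limit. Hist1h2ae, another H2A gene, read 569 and 601, 657 and 638, and 576 and 606 CPM in the same order, with overlapping WT and treated libraries and a log2 change of -0.43 ± 0.06. Hist1h1c was at 169.9 and 156 CPM in WT, 183 and 181 CPM in vehicle and 118 and 117 CPM in treated libraries, which did not overlap, and fell by 0.92 ± 0.06 (adjusted p = 1.04e-12, edgeR). Hist1h1e, the H1.4 gene, fell by 0.62 ± 0.05, from 566 and 572 CPM in vehicle to 447 and 460.3 CPM, and the H4 gene Hist1h4d by 0.70 ± 0.06, from 170.5 and 171 to 125 and 133 CPM. Both of these lost their call with library totals alone and in either stage taken alone. Hist1h1b stood apart, at 456 and 451 CPM in vehicle and 545 and 573 CPM in treated libraries, a log2 change of 0.01 ± 0.05 after TMM scaling and of 0.30 with library totals. Within each stage its treated libraries lay above vehicle on library totals, without overlap. They read 427 and 478 against 271 and 373 CPM in proNeu-like cells, and 679 and 684 against 501 and 467 CPM in preNeu-like cells. No replicative H1 gene was called higher in either stage.

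The count of calls rests on scaling. TMM, the scaling of the test, used factors of 0.904 and 0.900 for vehicle and 1.11 and 1.11 for treated precursors. With library totals alone the median of all genes moved to 0.30 and that of the replicative genes to -0.39, so the distance between them stayed about the same while the zero moved. On that scale 15 of the 60 replicative genes fell and none rose, against 4.41% of all genes lower and 28.3% higher. Of the 15, 8 were H4 genes, out of 12. The summed replicative CPM, on library totals, was 3841 and 4023 in treated precursors, below 4591 and 4582 in vehicle and 4255 and 4069 in WT precursors, a log2 ratio of -0.22 for treated against vehicle, which became -0.52 with TMM factors. Treated libraries were thus below vehicle on both scales, with no overlap.

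The makeup of the class moved with treatment too. Treated precursors held 48.9 and 49.6% cells of the proNeu-like cluster, vehicle precursors 19.1 and 16.7% and WT precursors 19.3 and 24.7%. The 5 proNeu markers, all detected, summed to 23449 and 23891 CPM in treated, 8644 and 7455 CPM in vehicle and 7863 and 10758 CPM in WT libraries. S cells made up 49.1 and 51.8% of treated precursors, 42.5 and 41.6% of vehicle and 45.0 and 45.0% of WT precursors, and G2/M cells 46.5 and 46.2% of treated, 55.2 and 57.4% of vehicle and 53.1 and 51.7% of WT precursors. The preNeu-like cells were also spread differently over their clusters. Cluster 7 held 11.6 and 10.6% of them in treated, 63.9 and 66.3% in vehicle and 66.4 and 64.3% in WT libraries, and cluster 14 held 228 of 380 and 281 of 473 cells in treated, 53 of 549 and 65 of 688 in vehicle and 33 of 452 and 39 of 409 in WT libraries, while cluster 13 held 24.3 to 30.02% in all libraries.

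The sums were then read within each stage, on library totals. In the preNeu-like clusters alone the replicative sum was 5172 and 5331 CPM in treated, 5140 and 4891 CPM in vehicle and 4920 and 4773 CPM in WT libraries. In the proNeu-like cluster alone it was 2668 and 2899 CPM in treated, 2334 and 3006 CPM in vehicle and 1927 and 2287 CPM in WT libraries. On this scale the treated mean was not below the vehicle mean in either stage, with log2 ratios of 0.07 in preNeu-like and 0.06 in proNeu-like cells, and proNeu-like libraries overlapped. With TMM factors of each stage the preNeu-like sums were 4776 and 4923 CPM in treated, 5593 and 5363 CPM in vehicle and 4804 and 4805 CPM in WT libraries, a log2 ratio of -0.18 with treated libraries below vehicle, and the proNeu-like ratio was 0.03 with overlapping libraries. The direction in preNeu-like cells thus depended on the scaling. The median log2 change over the tested replicative genes, from edgeR with TMM, was -0.35 in preNeu-like and -0.31 in proNeu-like cells, against 0.004 and 0.007 over all genes.

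Single genes still fell within the stages. In preNeu-like cells 17 of 58 tested replicative genes fell and none rose, against 4.76% of all genes lower and 5.64% higher, and 9 of the 17 were H4 genes, out of 12. In proNeu-like cells 6 of 48 fell and 1 (Hist1h2ap) rose, against 3.57% lower and 1.87% higher. Hist2h4 fell in both, by 1.44 ± 0.30 in proNeu-like and by 0.92 ± 0.17 in preNeu-like cells, and Hist4h4 by 1.13 ± 0.15 and by 0.78 ± 0.10. In proNeu-like cells Hist1h4d, Hist1h1e and Hist1h1c changed sign, with log2 changes of 0.05, 0.16 and 0.04 that did not pass the test. How much of the difference in the whole class came from its makeup was not tested beyond these fits.

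Within the whole precursor class, treated S cells lay below vehicle and G2/M cells overlapped. Their replicative sum was 3032 and 2932 CPM in treated, 3948 and 3923 CPM in vehicle and 3238 and 3075 CPM in WT libraries, without overlap between treated and vehicle (log2 ratio -0.40). In G2/M cells of the class it was 5023 and 5407 CPM in treated, 5299.6 and 5097 CPM in vehicle and 5271 and 5122 CPM in WT libraries, with overlapping groups. S and G2/M cells were not divided further by stage, and these sums are on library totals. Among all CD45 cells called S, the sum was 2780 and 2785 CPM in treated, 3749.7 and 3687 CPM in vehicle and 2990.2 and 3411 CPM in WT libraries.

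**Figure D3:**
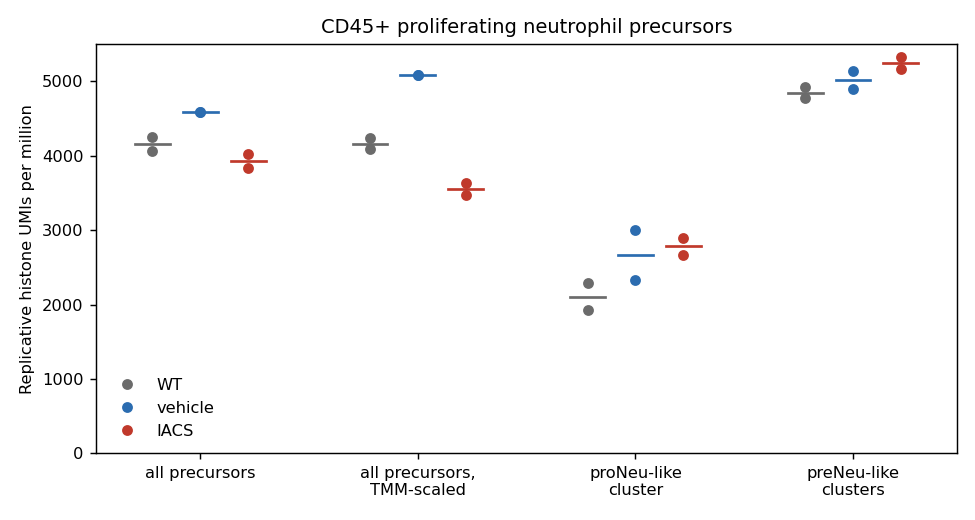
Summed replicative CPM in proliferating neutrophil precursors for each library (points) with group means (lines), on library totals, after TMM scaling, and, on library totals, in the proNeu-like and preNeu-like clusters alone. Treated libraries are below vehicle in the first 2 columns (3841 and 4023 against 4591 and 4582 CPM on library totals) and overlap with or exceed vehicle within each stage on library totals, whereas with TMM factors the log2 ratio of preNeu-like cells is -0.18.

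Of the 10 variants, 3 rose in these precursors and none fell, against 12.8% of all genes higher and 10.7% lower. With library totals alone 4 rose and none fell, against 28.3% of all genes higher and 4.41% lower. H1fx (chr6:87980421-87981637) was at 3.32 and 5.46 CPM in WT, 1.53 and 0.81 CPM in vehicle and 13.03 and 13.2 CPM in treated libraries, from 22, 37, 14, 9, 154 and 197 UMIs. The groups did not overlap, and H1fx rose by 3.23 ± 0.25 (log2, adjusted p = 1.08e-10, edgeR), a call that held in 16 of 16 alternatives, with log2 changes of 2.28 to 3.71. In proNeu-like cells alone it was at 12.2 and 17.7 CPM in WT, 3.90 and 3.83 CPM in vehicle and 19.3 and 19.2 CPM in treated libraries. In preNeu-like cells alone it was at 0.78 and 0.62, 0.95 and 0.21, and 5.96 and 6.25 CPM, so treated libraries lay above vehicle in both stages, and in preNeu-like cells the groups drew on different clusters.

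H2afy2, the macroH2A2 gene, followed at lower counts. It was at 2.41 and 2.22 CPM in WT, 0.76 and 0.72 CPM in vehicle and 3.81 and 4.97 CPM in treated precursors, from 7 to 74 UMIs a library. The groups did not overlap, and it rose by 2.28 ± 0.33 (adjusted p = 3.77e-06, edgeR), in 15 of 15 alternatives. In proNeu-like cells alone H2afy2 was at 2.72 and 4.17 CPM in WT, 1.67 and 0.55 CPM in vehicle and 3.66 and 5.61 CPM in treated libraries, so WT and treated overlapped. In preNeu-like cells alone it was at 2.33 and 1.44, 0.54 and 0.75, and 3.97 and 4.22 CPM in the same order. H2afy rose by 0.52 ± 0.06, from 274 and 241 CPM in vehicle to 455 and 448 CPM, but the call was lost in 6 of 16 alternatives, among them both stages taken alone and the fit without vehicle replicate 2. H1f0 was at 18.9 and 21.7 CPM in WT, 15.2 and 14.4 CPM in vehicle and 23.9 and 25.2 CPM in treated precursors. Its log2 change of 0.44 ± 0.11 stayed under the size limit in the whole class, and it rose by 0.79 ± 0.12 in preNeu-like cells (adjusted p = 8.51e-08, edgeR).

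In later neutrophils 7 of 54 tested replicative genes rose and 1 fell, against 11.1% of all genes higher and 8.55% lower. The count that rose was thus near the share of all genes, and the values below describe single genes. The groups drew on different clusters of this class. Clusters 3, 4 and 5 held 82.8 and 81.6% of its cells in treated, 3.58 and 3.53% in vehicle and 1.48 and 1.39% in WT libraries. Clusters 0, 1, 2 and 6 held 5.66 and 5.97% in treated, 81.2 and 82.0% in vehicle and 91.6 and 91.6% in WT libraries, and the part of this shift in the values that follow was not tested. Hist1h1c was at 89.7 and 87.5 CPM in WT, 65.6 and 64.4 CPM in vehicle and 127 and 130.4 CPM in treated libraries. The treated libraries were above both other groups, and Hist1h1c rose by 0.75 ± 0.04 (adjusted p = 8.24e-27, edgeR) in 13 of 13 alternatives. Hist1h2ac, an H2A gene, rose by 1.03 ± 0.13, from 3.80 and 5.04 CPM in vehicle to 9.37 and 11.9 CPM, and Hist3h2a, an H2A gene outside the large cluster, by 1.33 ± 0.27, from 0.89 and 0.90 to 2.96 and 2.39 CPM, a call that was lost with DESeq2. The other 4 that rose were Hist1h1a, Hist1h1d, Hist1h2bg and Hist1h4c. The gene that fell was Hist2h4 (-0.81 ± 0.24), which lost its call in 5 of 13 alternatives.

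H1f0 was the 1 of 10 variants that rose in later neutrophils, against 11.1% of all genes higher, so this count was near the share of all genes. It was at 3.51 and 3.42 CPM in WT, 2.35 and 2.95 CPM in vehicle and 6.98 and 8.73 CPM in treated libraries. The treated libraries did not overlap with the others, and H1f0 rose by 1.34 ± 0.16 (adjusted p = 7.16e-11, edgeR), in 13 of 13 alternatives. H1fx was near the floor there, with 4 to 19 UMIs a library, and its log2 change of 0.46 ± 0.46 did not pass. With library totals alone 10 replicative genes rose and none fell, against 22% of all genes higher and 4.29% lower, and the all-gene median was 0.23. On that scale too the count that rose did not exceed the share of all genes.

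The effect of the inhibitor differed between precursors and later neutrophils for 20 of 71 members, against 15.2% of all genes, by an interaction test in edgeR at an adjusted p below 0.01. Among these were H1fx, with a difference of 2.83, Hist1h1c with -1.62 and Hist1h2ac with -1.65, where negative values mean a lower log2 change in precursors. The count was 20 with library totals alone, and the share of all genes on that scale is not given here.

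**Figure D4:**
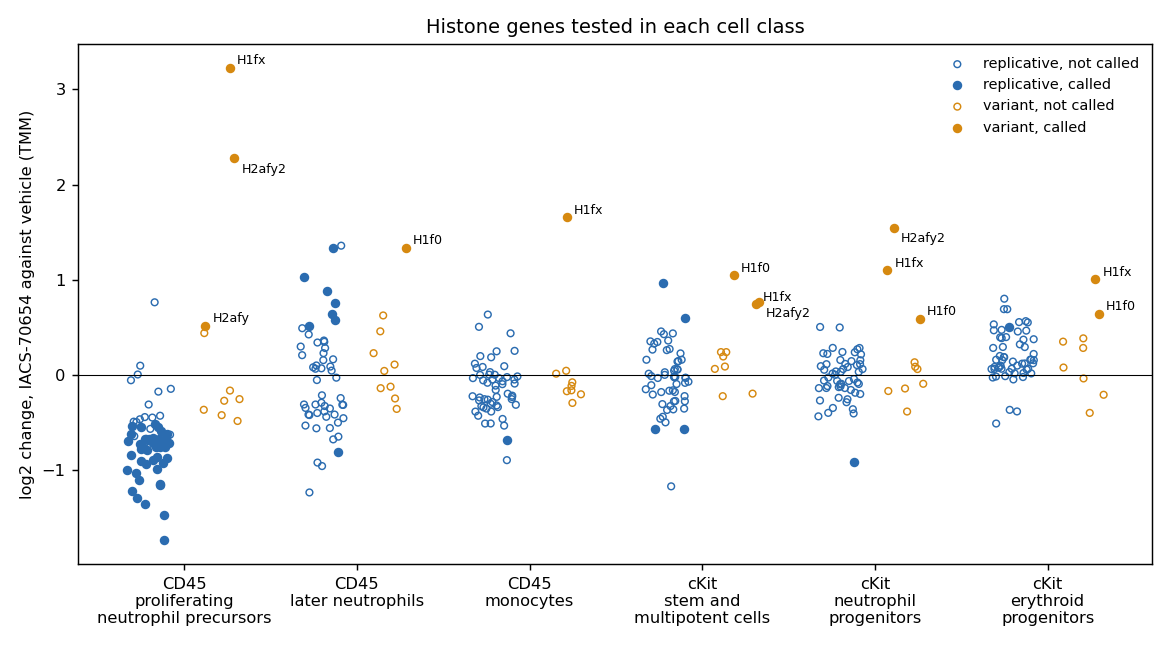
Log2 change of treated against vehicle libraries for each tested replicative (blue) and variant (orange) gene in the 6 cell classes, from edgeR with TMM scaling, with filled points for called genes. Replicative genes of proliferating precursors lie mostly below 0 (median -0.69), and with library totals alone their median is -0.39 where that of all genes is 0.30, and H1fx, H2afy2 and H1f0 are the highest called variants.

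Monocytes showed few calls. None of 55 replicative genes rose and 1 fell, against 2.37% of all genes higher and 3.33% lower. It was Hist4h4, at 28.7 and 38.8 CPM in WT, 48.9 and 54.9 CPM in vehicle and 30.9 and 33.3 CPM in treated libraries, which fell by 0.68 ± 0.12 (adjusted p = 8.16e-05, edgeR) in 14 of 14 alternatives. Of 9 variants, H1fx rose, from 2.46 and 2.97 CPM in vehicle to 9.89 and 7.46 CPM, with 6.19 and 3.65 CPM in WT. Treated libraries were above the others, and the log2 change was 1.66 ± 0.33 (adjusted p = 4.68e-04, edgeR), a call lost in 5 of 14 alternatives, among them the fits without vehicle replicate 1 and without treated replicate 1. The 5 proNeu markers summed to 7209 and 7663 CPM in treated, 4831 and 5019 CPM in vehicle and 3960 and 4243 CPM in WT monocytes, and their part in this result was not tested.

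In stem and multipotent cells 2 of 56 replicative genes rose and 2 fell, against 1.87% of all genes higher and 3.89% lower, while 3 of 10 variants rose. H1f0 was at 23.3 and 26.0 CPM in WT, 26.4 and 22.4 CPM in vehicle and 53.1 and 51.7 CPM in treated libraries. WT and vehicle overlapped, treated libraries lay above both, and H1f0 rose by 1.05 ± 0.09 (adjusted p = 3.40e-24, edgeR). H1fx was at 53.6 and 56.9, 46.2 and 39.6, and 75.6 and 73.2 CPM in the same order and rose by 0.74 ± 0.07, a call lost in S-phase cells alone. H2afy2 rose by 0.76 ± 0.20, from 5.00 and 5.26 CPM in vehicle to 9.01 and 8.33 CPM, and this call was lost in 5 of 14 alternatives. The replicative genes that rose included Hist1h2bf (0.97 ± 0.26, lost in 7 of 13 alternatives), and those that fell were Hist1h2ac (-0.57 ± 0.06) and Hist1h3f (-0.56 ± 0.10). Both lost their call without vehicle replicate 1, with values of -0.49 and -0.27, and Hist1h3f also with DESeq2. The 7 stem markers, all detected, summed to 1152 and 1111 CPM in treated, 1070 and 1131 CPM in vehicle and 970 and 1059 CPM in WT libraries. The clusters of this class shifted with treatment. The stem cluster held 7.79 and 8.24% of its cells in treated, 16.6 and 16.1% in vehicle and 14.9 and 15.9% in WT libraries, and the multipotent cluster 3 held 28.2 and 27.5%, 17.1 and 21.5%, and 25.8 and 21.9% in the same order, and their part in these results was not tested.

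Neutrophil progenitors of the cKit sort gave the same 3 variants. H2afy2 was at 6.16 and 5.45 CPM in WT, 2.87 and 2.61 CPM in vehicle and 8.03 and 9.51 CPM in treated libraries, without overlap, and rose by 1.55 ± 0.20 (adjusted p = 1.60e-11, edgeR). H1fx was at 25.9 and 25.0, 16.2 and 17.3, and 38.5 and 34.4 CPM and rose by 1.10 ± 0.09 (adjusted p = 7.20e-23, edgeR). Both held in 14 of 14 alternatives, whereas H1f0 rose by 0.59 ± 0.12 and lost its call with DESeq2 and without vehicle replicate 1. Of 55 replicative genes none rose and 1 fell, against 3.13% of all genes higher and 3.76% lower. It was Hist1h2ac, at 54.5 and 61.8 CPM in WT, 62.7 and 60.6 CPM in vehicle and 35.3 and 33.0 CPM in treated libraries, which fell by 0.91 ± 0.07 (adjusted p = 1.00e-26, edgeR) in 14 of 14 alternatives, opposite to its rise in later neutrophils. Between neutrophil progenitors and stem and multipotent cells the effect differed for 5 of 67 members, against 4.84% of all genes, and the differences were small, from -0.66 to 0.36.

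In erythroid progenitors 1 of 57 replicative genes rose and none fell, against 1.47% of all genes higher and 4.48% lower, and 2 of 9 variants rose. H1fx was at 19.9 and 14.3 CPM in WT, 16.9 and 15.3 CPM in vehicle and 31.2 and 35.9 CPM in treated libraries. WT and vehicle overlapped, and H1fx rose by 1.01 ± 0.13 (adjusted p = 8.01e-07, edgeR) in 14 of 14 alternatives. H1f0 rose by 0.64 ± 0.12, from 14.7 and 13.2 to 21.6 and 23.3 CPM, a call lost in 4 of 14 alternatives, among them the fit without vehicle replicate 1. The replicative gene was Hist1h1b (0.51 ± 0.05), at 321 and 277 CPM in WT, 253 and 226 CPM in vehicle and 359 and 328 CPM in treated libraries, close to the size limit and lost in 4 of 14 alternatives, among them the fits without vehicle replicate 2 and without treated replicate 1.

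Across the 6 classes H1fx was thus called higher in 5, H1f0 in 4, H2afy2 in 3 and H2afy in 1. H2afz, H2afv, H2afj, H2afx, H3f3a and H3f3b were called in none. In precursors as a whole and in neutrophil progenitors the treated libraries exceeded WT as well as vehicle for H1fx and H2afy2, though in proNeu-like cells alone treated and WT libraries overlapped for H2afy2. H1fx was called lower in vehicle than in WT libraries in both classes, while H2afy2 was not, with log2 changes of -1.48 ± 0.43 (adjusted p = 0.0216, edgeR) and -1.08 ± 0.33 (adjusted p = 0.0172, edgeR).

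**Figure D5:**
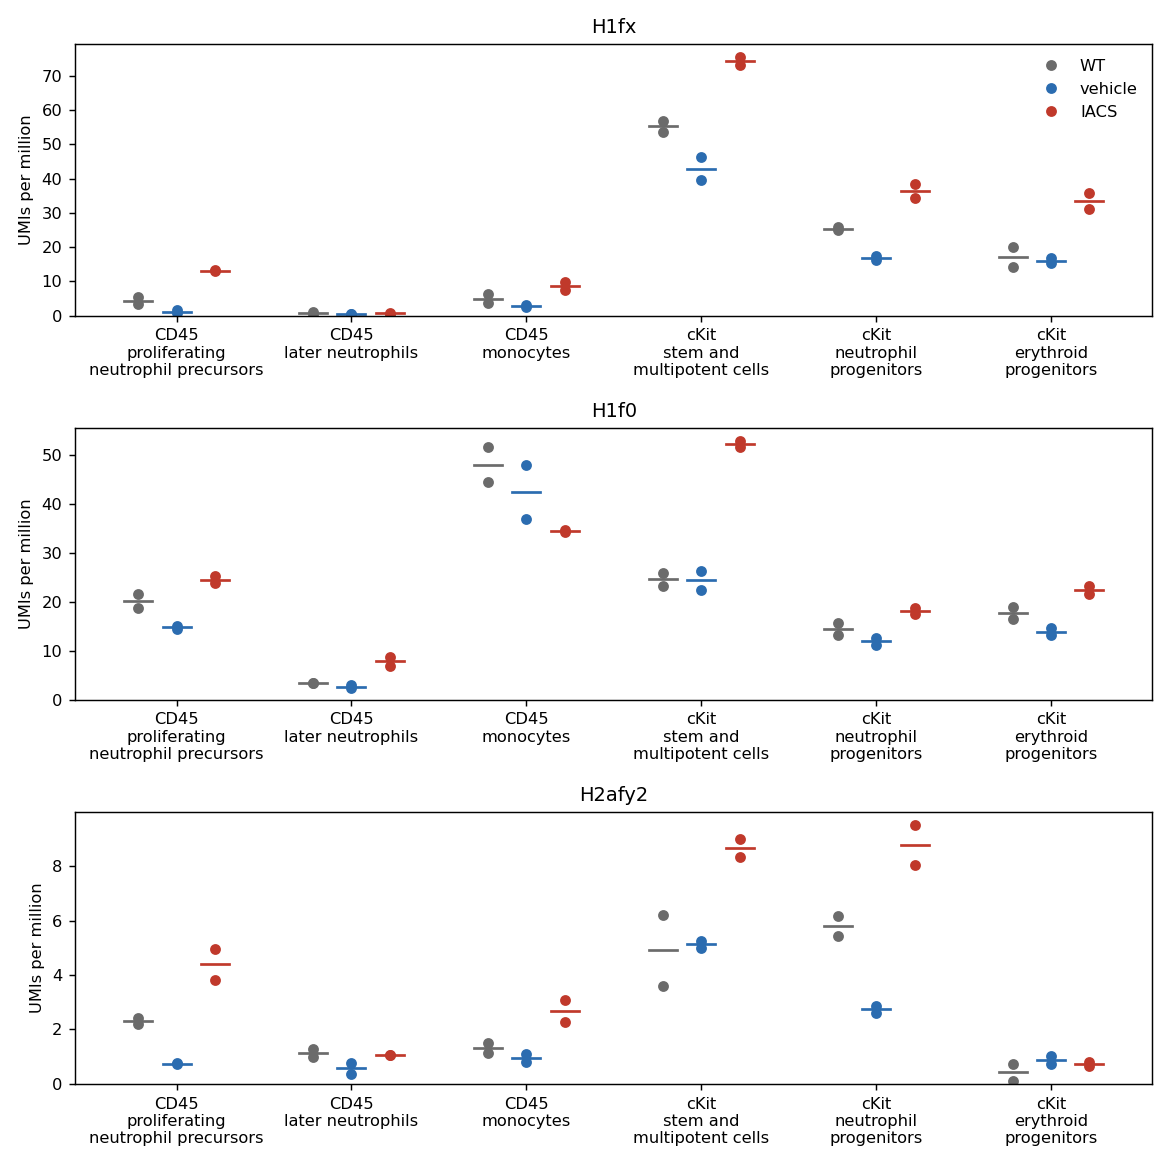
CPM of H1fx, H1f0 and H2afy2 in each library (points) with group means (lines) for the 6 cell classes. H1fx in precursors is at 13.03 and 13.2 CPM in treated against 1.53 and 0.81 CPM in vehicle libraries, and H1f0 in stem and multipotent cells at 53.1 and 51.7 against 26.4 and 22.4 CPM.

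The vehicle and WT groups differ in the tumor and in the dosing with vehicle, which cannot be told apart, and the vehicle libraries are those the treated ones were set against, so the values of both comparisons are not independent. In proliferating precursors 10 of 60 replicative genes were higher in vehicle than in WT libraries and none was lower, against 1.95% of all genes higher and 1.41% lower, with a median of 0.37 over the 60 and -0.01 over all genes. Of the 10, 5 were H4 genes, 2 H3, 2 H1 and 1 H2A. With library totals alone, where the median of all genes was -0.16, 5 were called, and the share of all genes called on that scale is not given here. When 1 library was left out, 5 to 11 members in all were called, the lowest without vehicle replicate 2. Hist1h1b was at 295 and 275 CPM in WT and 456 and 451 CPM in vehicle libraries, higher by 0.82 ± 0.06 (adjusted p = 3.51e-10, edgeR) in 16 of 16 alternatives. Hist1h3i, an H3 gene, was at 16.2 and 14.03 CPM in WT and 26.9 and 22.6 CPM in vehicle libraries (0.86 ± 0.13), a call lost in proNeu-like cells alone. Hist1h4k (0.91 ± 0.21) and Hist1h4b (2.11 ± 0.52) were called on low counts and lost their call in 8 of 15 and 7 of 14 alternatives. H1fx was the 1 variant called lower in vehicle, by 1.80 ± 0.35 on the log2 scale, and the call was lost without WT replicate 2 or vehicle replicate 2, without the 5% of cells with the most UMIs, and in preNeu-like cells alone.

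Fewer members differed between vehicle and WT libraries elsewhere. In later neutrophils 4 of 54 replicative genes were higher and none lower, against 5.17% of all genes higher and 3.64% lower, so the count was near the share of all genes. Cluster 2 held 28.0 and 28.8% of these cells in vehicle and 4.05 and 4.06% in WT libraries, and its part in the values was not tested. Hist1h3e, an H3 gene, was at 6.52 and 8.98 CPM in WT and 13.2 and 12.4 CPM in vehicle libraries (0.91 ± 0.14). Its call was lost only in cells called S from the full cycle lists, most of which the trimmed lists did not call S. It was followed by Hist1h3f (1.00 ± 0.28) and Hist1h2ap (0.63 ± 0.11), which both lost their call with DESeq2 and with library totals alone, where the median of all genes was -0.18. On library totals 1 replicative gene, Hist1h3e, was higher and 1, Hist1h2br (-0.54, named after its values were seen), was lower, and the share of all genes called on that scale is not given here. Hist1h3f lost its call in 8 of 13 alternatives, among them the fits without each of the 4 WT and vehicle libraries in turn. Without WT replicate 1 the count was 2. In monocytes 1 of 55 was higher, against 0.533% of all genes higher and 0.409% lower. It was Hist4h4 (0.60 ± 0.13), whose call was lost in 7 of 14 alternatives, among them the fits without WT replicate 1, without vehicle replicate 1 and without vehicle replicate 2. In stem and multipotent cells 4 of 56 were higher and none lower, against 0.878% and 0.416% of all genes, among them Hist1h2ak (0.78 ± 0.20), Hist1h3f (0.70 ± 0.13) and Hist1h3c (0.63 ± 0.10). Of 14 alternatives the call was lost in 7 for Hist1h2ak, among them DESeq2 and the fits without WT replicate 1, WT replicate 2 or vehicle replicate 1. It was lost in 4 for Hist1h3f, among them DESeq2 and the fit without vehicle replicate 1, and in 3 for Hist1h3c, among them the fit without WT replicate 2. Without WT replicate 2 the count of members called was 2. Cluster 6, led by mitotic genes such as Nusap1 and Cenpf, held 20.5 and 15.0% of this class in vehicle and 11.7 and 12.6% in WT libraries, and its part in these values was not tested.

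In neutrophil progenitors 2 of 55 replicative genes were higher in vehicle than in WT libraries, Hist1h4a (0.89 ± 0.25) and Hist1h1b (0.54 ± 0.07), against 0.803% of all genes higher and 0.769% lower. Hist1h4a lost its call in 6 of 14 alternatives, among them DESeq2 and the fits without each of the 4 WT and vehicle libraries in turn. Hist1h1b was at 89.7 and 118 CPM in WT and 148 and 149.6 CPM in vehicle libraries, and lost its call with DESeq2 and without WT replicate 1. H1fx was lower in vehicle, by 0.64 ± 0.15, and lost its call in 4 of 14 alternatives, among them DESeq2 and the fits without WT replicate 1 and without vehicle replicate 1. The count of members called was 0 without WT replicate 1 and 1 without vehicle replicate 1. Cluster 7 held 34.2 and 35.6% of the neutrophil progenitors in vehicle and 26.8 and 20.4% in WT libraries. Its part in the values of Hist1h4a, Hist1h1b and H1fx was not tested. In erythroid progenitors 1 of 57 replicative genes, Hist1h3d (-0.59 ± 0.13), was lower and none higher, against 0.0997% of all genes lower and 0.59% higher, and the call was lost in 8 of 14 alternatives, among them the fits without WT replicate 1 and without vehicle replicate 1.

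Genes that process or place histones were read in the same fits. The first list held 11 genes of histone mRNA processing, among them Slbp, and none was called in any comparison by edgeR or by DESeq2, while 0 to 4 of them had an unadjusted p under 0.05 in edgeR. Slbp was at 156 and 152 CPM in WT, 153 and 143 CPM in vehicle and 145 and 143 CPM in treated precursors, with overlapping groups, and its log2 change of -0.33 ± 0.06 (adjusted p = 2.07e-05, edgeR) stayed under the size limit. That change is after TMM scaling, with factors of 0.904 and 0.900 for vehicle and 1.11 and 1.11 for treated libraries. The CPM, on library totals, show no such distance, so the change rests on the scaling. The second list held 22 histone chaperones and exchange factors. In precursors 4 of 22 fell and none rose after treatment, set against 10.7% of all genes lower. They were Asf1b (-0.63), an H3-H4 chaperone of replication, Cenpa (-0.58), the centromeric H3, its loader Hjurp (-0.56), and Hira (-0.54), the H3.3 chaperone, which is named although it falls outside the rule for named genes. With library totals alone these 4 lay between -0.33 and -0.25, under the size limit. In later neutrophils 2 of 22 fell, against 8.55% of all genes lower, Chaf1b (-1.08), a subunit of the chromatin assembly factor, and Hjurp (-0.57), which was at -0.34 with library totals. Chaf1b was also lower in vehicle than in WT libraries (-0.62), though not by DESeq2, as 1 of 22 against 3.64% of all genes. None was called in the other comparisons by edgeR or by DESeq2, where 1 to 12 of the 22 had an unadjusted p under 0.05.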

How the data were processed

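The authors tagged the cell suspensions with CellPlex oligos, made 10x Genomics 3′ libraries and separated the samples with Cell Ranger multi. For each tagged sample, called a library here, they deposited a matrix of raw UMI counts per gene and barcode (Cell Ranger 7.2.0 in the matrix headers). The submitters' processing notes also name mm10 and Seurat. No normalization had been applied to these counts, and the strand setting of the counting was not given in the sources used here. The members and gene lists were chosen with earlier results of these data known.

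Cells with 200 to 6000 detected genes and at most 10% mitochondrial UMIs were kept, and median UMIs per kept cell were 4113 to 9512 over the libraries. Replicates differed by more than a random draw of single UMIs would give (chi-square per degree of freedom 1.84 to 4.44). That test treats UMIs as independent, so it cannot tell a difference between replicates from the sampling of cells. No doublet caller was run. Instead, the 5% of cells with the most UMIs were left out as an alternative. Cells were clustered for each sort with the Leiden algorithm (2000 variable genes, 30 components, 20 neighbours, Leiden resolution 1). The variable genes held no histone genes, no genes that process or place histones, and no mitochondrial or ribosomal protein genes. No correction for differences between libraries was applied. Clusters were named from marker lists, so names may differ from those of the study. UMIs were summed per class and library where at least 20 cells were present. The quasi-likelihood test of edgeR 4.0.16 (filterByExpr, TMM) was fitted to these sums over the 6 libraries of a sort, and p-values of all genes were adjusted together by Benjamini-Hochberg. An exact permutation test of 2 libraries against 2 cannot go below p = 0.333.

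Alternatives were DESeq2 1.42.0, library totals without TMM, no filter, a replicate block, leaving out each library, S-phase cells by the full cycle lists, Leiden resolution 0.5 and, chosen after seeing the data, trimmed cycle lists, TMM factors on the summed CPM, and proNeu-like or preNeu-like cells alone, with and without TMM factors of the stage. Of the later neutrophils, the full lists called 447 to 838 cells a library S, and the trimmed lists 21 to 56. Replicate numbers did not pair the libraries. Genes named with values were all variants, the 6 replicative genes with the most UMIs, and in each comparison up to 3 members called in each direction with the largest change, with up to 3 genes of each pathway list and Slbp. Hist1h2bc, Hist4h4 in precursors, the genes listed as lower in cKit S cells and the other genes that rose in later neutrophils were named after their values were seen.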

Additional observations from a re-analysis of the deposited data

Results flagged for a closer look

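By the interaction test of edgeR, the effect of IACS-70654 against vehicle differed between proliferating neutrophil precursors and later neutrophils for 20 members. Of all genes, 15.2% differed in this way. Differences are given here as log2 change in precursors minus log2 change in later neutrophils. Among variants the difference was 2.83 for H1fx and 0.46 for H2afy, and -0.84 for H1f0, -0.45 for H3f3b and -0.41 for H2afv. H1f0 therefore rose more in later neutrophils and H1fx more in precursors. Among linker histones of the replicative group it was -1.62 for Hist1h1c, -1.42 for Hist1h1d, -1.06 for Hist1h1e and -0.88 for Hist1h1a. Among H4 genes it was -1.47 for Hist1h4a, -1.33 for Hist1h4c, -0.95 for Hist4h4, -0.83 for Hist1h4h, -0.81 for Hist1h4d and -0.77 for Hist1h4n. Among H3 genes it was -1.13 for Hist1h3a, -0.998 for Hist1h3i and -0.80 for Hist1h3e, and among H2A and H2B genes -1.65 for Hist1h2ac and -0.93 for Hist1h2bh. The share of proNeu-like cells in the precursors and the clusters that held most preNeu-like cells and later neutrophils moved with treatment, and their part in these differences was not tested.

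Between neutrophil progenitors and stem and multipotent cells of the cKit sort the effect differed for 5 members, where 4.84% of all genes differed. The differences (neutrophil progenitors minus stem and multipotent cells) were -0.66 for Hist1h4i, -0.34 for H3f3b, -0.33 for Hist1h2ac, -0.21 for H2afz and 0.36 for Hist1h4d. With no filter on low counts 23 members differed in the CD45 sort and 4 in the cKit sort. The shares of all genes in these fits are not given here, so these counts are not read as a change of the members.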

How the results depend on the processing

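Of 642 values of 45 named gene results under the alternatives, 513 kept their call, 126 lost it and 3 changed sign, all in proNeu-like cells alone: Hist1h4d (0.049), Hist1h1e (0.16) and Hist1h1c (0.039). The causes were not tested. Below, counts are members called and ratios are log2 ratios of the summed replicative CPM, each for IACS-70654 against vehicle (treatment) or vehicle against WT (baseline). The shares of all genes called are given above for the main fits and for part of the alternatives in precursors and later neutrophils. For the other alternatives they are not given, so a change in such a count is not read as one of the members.

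As reported, the ratios (treatment, baseline) were 0.34 and -0.074 in later neutrophils, -0.076 and 0.048 in monocytes, 0.047 and 0.27 in stem and multipotent cells, 0.088 and 0.22 in neutrophil progenitors and 0.20 and -0.080 in erythroid progenitors, so several of those below change sign.

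In precursors the treatment count of 48 was 20 with library totals alone, 20 in preNeu-like and 8 in proNeu-like cells, and the baseline count of 11 was 7 with library totals and 3 in proNeu-like cells. The treatment ratio of -0.22 was -0.45 in S-phase cells, -0.40 with trimmed lists, -0.27 without the cells with the most UMIs, -0.52 with TMM factors, and 0.060 and 0.066 in proNeu-like and preNeu-like cells, which became 0.034 and -0.18 with TMM factors of the stage. The baseline ratio of 0.14 was 0.27, 0.32, 0.22, 0.29, 0.34 and 0.049 in the same order, and 0.35 and 0.19 for the stages with TMM factors.

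With DESeq2 the counts were 4 and 2 (treatment, baseline) in later neutrophils, 1 and 0 in monocytes, 3 and 1 in stem and multipotent cells, and 0 for baseline in neutrophil and in erythroid progenitors. With library totals the baseline counts were 2 in later neutrophils and 0 in erythroid progenitors. At Leiden resolution 0.5 the baseline count was 6 in neutrophil progenitors, with a ratio of 0.36, and the ratios in later neutrophils were 0.52 and -0.20. In S-phase cells, called here from the full lists, the counts were 1 and 0 in monocytes, 8 and 7 in neutrophil progenitors, 1 for baseline in stem and multipotent cells and 0 for baseline in erythroid progenitors. The ratios were 0.11 and 0.034 in later neutrophils, -0.20 for treatment in monocytes, -0.10 and 0.41 in neutrophil progenitors, -0.14 for treatment in stem and multipotent cells and 0.12 for treatment in erythroid progenitors. With trimmed lists the counts were 0 for baseline in monocytes, 9 and 5 in neutrophil progenitors, 1 for baseline in stem and multipotent cells, and 1 and 0 in erythroid progenitors. The ratios were -0.35 for treatment in monocytes, -0.13 and 0.35 in neutrophil progenitors, -0.19 for treatment in stem and multipotent cells and -0.14 for baseline in erythroid progenitors. Without the cells with the most UMIs the counts were 2 for baseline in monocytes and 7 for treatment in erythroid progenitors, and the ratios 0.15 and 0.18 in monocytes, 0.0075 for treatment in neutrophil progenitors and -0.014 for baseline in erythroid progenitors. TMM factors gave ratios of 0.11 and 0.11 in later neutrophils, 0.028 for treatment in neutrophil progenitors and -0.10 for baseline in erythroid progenitors.

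Replicate numbers did not pair the libraries (correlations of deviations -0.16 to 0.07). With the replicate block the baseline count in erythroid progenitors was 0, and that in precursors 10 against 11.

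When 1 library was left out, baseline counts ran from 5 to 11 in precursors, 2 to 4 in later neutrophils, 0 to 2 in monocytes, 2 to 5 in stem and multipotent cells, 0 to 3 in neutrophil progenitors and 0 to 1 in erythroid progenitors, and treatment counts from 1 to 3 in monocytes and 4 to 7 in stem and multipotent cells (lowest without vehicle replicate 1). The ratios ran from -0.26 to -0.19 (treatment) and 0.11 to 0.17 (baseline) in precursors, -0.065 to 0.17 and 0.15 to 0.39 in stem and multipotent cells, 0.035 to 0.14 and 0.17 to 0.28 in neutrophil progenitors, and 0.15 to 0.25 for treatment in erythroid progenitors. Where a count was 0 (edgeR or DESeq2), 5 to 19 members had an unadjusted p under 0.05. Replicative genes with few UMIs and copies that share reads limit what single values show.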

Other observations

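Clusters that no marker list named held some of the highest and lowest sums. CD45 cluster 21, led by Myl4, Vpreb3, Bach2 and Ebf1, genes known from B cell precursors in part, held 7115 to 8355 CPM of replicative and 11818 to 12951 CPM of variant histones in the 4 libraries with at least 20 of its cells, both above the proliferating neutrophil precursors. cKit cluster 16, led by genes that included Apoe and Mfsd2b, held 4964 to 7584 CPM of replicative histones, while cKit cluster 4 held 697 to 947 CPM. Most cells of cluster 16 were called G2/M, with 36 to 187 such cells a library where the cluster held 37 to 205.

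H3f3aos was at 2.26 and 2.07 CPM in WT, 3.16 and 4.04 CPM in vehicle and 1.86 and 2.08 CPM in treated precursors. H3f3aos overlaps H3f3a at their 5′ ends, and the strand setting of the counting was not stated.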
